A study of Mus musculus with 6 samples.

Results

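Mucl2, Gm1553, Agr2 and Spdef are 4 of the 50686 genes counted in RNA from mouse lacrimal glands, the exocrine glands that make the watery layer of tears. They were chosen by name: Mucl2 and Gm1553 are among the most abundant transcripts of the gland, and Agr2 and Spdef are known for their part in mucus-secreting cells. The glands came from adult mice of 13 weeks, 3 wild-type and 3 titled Tabby with the genotype Eda-/-, all under the strain label C57BL/6. Eda encodes ectodysplasin A, a TNF-family ligand needed for the development of hair, teeth and several exocrine glands. The labels give no tissue or time limit to the loss of Eda, so differences that arose in development and those of the adult gland cannot be told apart. Nor can differences in genetic background between the 2 groups, if present, be told apart from those of Eda. The choice of the 4 genes rested on the contrast between these genotypes. Their levels and differences are therefore given as a description with no test, and tests are kept for genes outside the 4.

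Library totals ran from 11894395 to 15700899 counts, and the counts of Eda itself were 41, 48 and 42 for wild-type, with 2, 0 and 0 for Eda-/-. All 6 libraries held Y-linked transcripts (194 counts or more of each of 4 genes) and at most 3 counts of Xist. The lacrimal markers were present: Pax6 lay between 97.4 and 114 CPM (the usual unit of counts scaled to a common library size, here adjusted by the trimmed mean of M-values, TMM) and the secretoglobin Scgb2b24 between 25944 and 39002 CPM. Genes of salivary glands, which lie close by and hold true mucous cells, were nearly absent, with 15 markers summing to between 1.05 and 1.56 CPM in every library and Dcpp3, Smr2, Smr3a, Smgc and Klk1b22 at 0 counts.

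Mucins are heavily glycosylated proteins that give mucus its body. Goblet and mucous cells make the large gel-forming kinds under the ETS-family transcription factor SPDEF, and the protein disulfide isomerase AGR2 helps to fold them in the endoplasmic reticulum. Mucl2 is named mucin-like and has a far shorter coding sequence than those giants. RefSeq lists it also as Spt1, and gives Gm1553 the synonym Lcrn. The mouse lacrimal gland is mainly a serous gland, whose cells release watery protein rather than gel.

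The 4 genes lie on different chromosomes of GRCm38. Mucl2 (ENSMUSG00000036925.7) lies on the minus strand at chr15:103895855-103899312. Gm1553 (ENSMUSG00000094186.2) is at chr10:82486537-82492618 on the minus strand, Agr2 (ENSMUSG00000020581.11) at chr12:35992907-36004087 on the plus strand, and Spdef (ENSMUSG00000024215.13) at chr17:27714352-27728955 on the minus strand. GENCODE M21 annotates all as protein-coding, and no other annotated gene overlaps any of them. None of the 31-base words of Gm1553, Agr2 or Spdef transcripts occurs in another gene's transcripts. Mucl2 shares 2.07% of its words, all with Mucl1, its neighbour 144 kb away on the same strand.

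Mucl2 and Mucl1 are close in sequence, although only Mucl2 had more than a few counts in these glands. The first 150 coding bases of each, read from the GENCODE M21 transcripts, are given here for that reason, with the bases that differ between the pair in capitals.
Mucl2: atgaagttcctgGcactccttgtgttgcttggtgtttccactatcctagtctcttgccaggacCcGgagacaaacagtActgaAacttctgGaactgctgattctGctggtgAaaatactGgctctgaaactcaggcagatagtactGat
Mucl1: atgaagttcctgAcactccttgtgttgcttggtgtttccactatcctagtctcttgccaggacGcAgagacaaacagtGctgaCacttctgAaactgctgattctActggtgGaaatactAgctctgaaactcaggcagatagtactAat
Of these 150 bases 10 differed, 1 of them in the first 60. Over the whole coding sequence 346 of 416 aligned bases were identical (83.2%). RefSeq lists Mucl1, with the synonym Spt2, as a transcribed pseudogene, while GENCODE lists it as protein-coding.

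Both abundant members have a TATA motif at the same distance from the start of transcription. The 250 bases before the RefSeq start are shown for Mucl2 (chr15:103899313-103899562) and Gm1553 (chr10:82492619-82492868), in the direction of transcription on the minus strand (GRCm38.p6). Capitals mark the TATA motif (TATANA, sense strand), the core GGAT that SPDEF prefers among ETS factors and the forkhead motif TGTTTAC, the last 2 on both strands.
Mucl2: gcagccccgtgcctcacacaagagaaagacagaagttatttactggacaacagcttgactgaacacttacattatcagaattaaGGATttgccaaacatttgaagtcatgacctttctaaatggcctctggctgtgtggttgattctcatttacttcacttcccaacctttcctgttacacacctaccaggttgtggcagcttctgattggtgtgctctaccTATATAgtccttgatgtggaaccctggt
Gm1553: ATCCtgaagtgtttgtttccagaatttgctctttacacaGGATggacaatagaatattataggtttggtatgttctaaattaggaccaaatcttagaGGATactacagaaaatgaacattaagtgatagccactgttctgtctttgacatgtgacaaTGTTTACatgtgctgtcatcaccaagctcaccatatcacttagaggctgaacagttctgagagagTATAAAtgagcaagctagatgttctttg
The motif TATANA begins 28 bases before the start in both. It occurs anywhere in 16.4% of the 32851 windows of this length in the table, and begins between 35 and 20 bases before the start in 2.82%. No TATANA was found in the windows of Agr2 or Spdef. The core GGAT is common, present in 74.1% of all windows, and occurred once for Mucl2, 3 times for Gm1553, 2 times for Agr2 and 5 times for Spdef. TGTTTAC, in 3.17% of all windows, occurred once, for Gm1553. The general ETS core GGAA (93.4% of windows) was found 3 times for Mucl2, once for Gm1553, 3 times for Agr2 and 4 times for Spdef, and ACGTG, the core of XBP1 sites (16.6%), once, for Spdef. The kappa B motif, in 7.25% of windows, and CATATG, an E-box bound by MIST1 and in 3.46%, were found for none of the 4, all searched on both strands. These are matches of letters and were not tested as binding sites.

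Mucl2 was far more abundant in every Eda-/- gland than in any wild-type gland, and the mutants differed widely among themselves. Of all counts it took 4.08%, 4.35% and 4.26% in wild-type libraries 1 to 3, against 12.6%, 7.71% and 9.22% in mutant libraries 1 to 3. The groups did not overlap, and the lowest mutant stood well above the highest wild-type. Set against the counts of all genes outside the 20 most abundant, which removes the mass of the dominant transcripts, there were 10.2, 10.7 and 10.2 Mucl2 counts per 100 in wild-type glands, against 35.3, 22.1 and 26.5 in the mutants. On that scale the mutant mean was 2.70 times the wild-type mean, against 2.33 times as a share of all counts. The fitted log2 fold change after TMM was 1.49 (SE 0.15). In whole tissue, more or fewer cells of a type and more or less RNA per cell cannot be told apart.

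Mucl2 was more variable among the mutants than among the wild-type libraries. Its share had a coefficient of variation of 25.6% in the mutants and 3.24% in wild-type, a difference that was not tested. The highest mutant library held 1.64 times the share of the lowest, and the highest wild-type library 1.07 times. The 5 most abundant genes by mean share were Obp1a, Gm1553, Mucl2, Scgb2b2 and Gm5938, and the others had coefficients of 4.89% to 12% in the mutants. Of the 20 most abundant genes, Mucl2 ranked number 2 by variation among the mutants, after the secretoglobin Scgb1b3 at 25.9%, and number 14 among the wild-type libraries. The other 19 had a median of 6.63% among the mutants. Without mutant 1, the highest, the log2 ratio of the shares was 1.0, and without mutant 2, the lowest, it was 1.37.

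**Figure D1:**
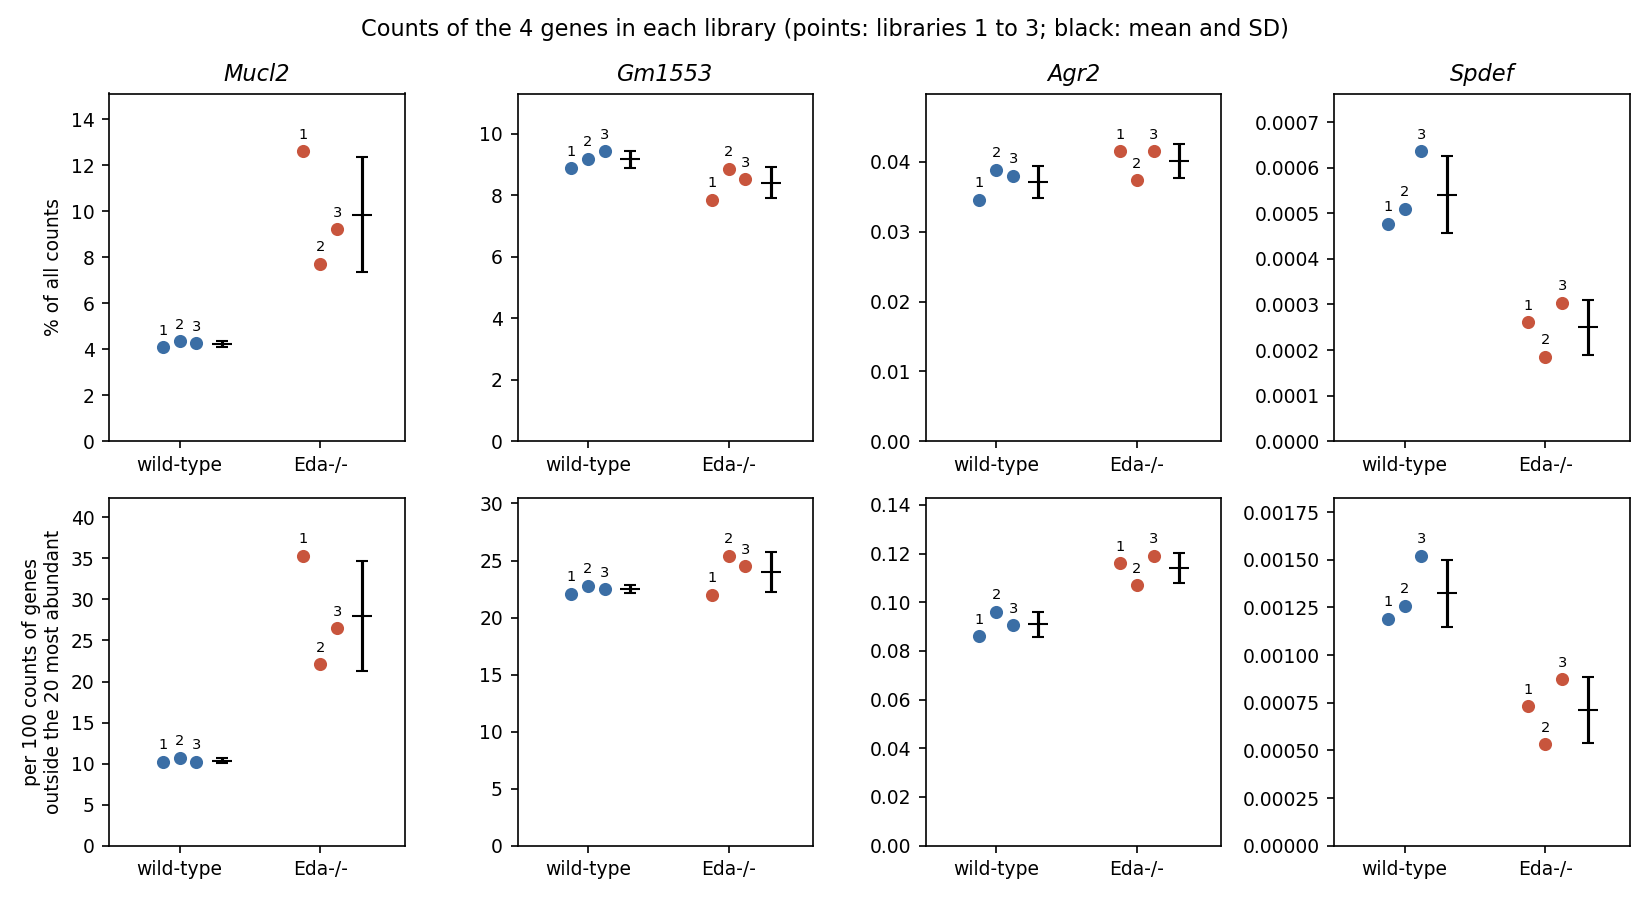
Counts of the 4 genes in each library, as a percentage of all counts (top row) and per 100 counts of the genes outside the 20 most abundant (bottom row); coloured points are libraries 1 to 3 of each genotype, and the black mark and bar are the mean and SD of 3 libraries. Mucl2 lies between 7.71% and 12.6% in the mutants and between 4.08% and 4.35% in wild-type, while Gm1553 lies lower in the mutants in the top row and overlaps between genotypes in the bottom row.

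Gm1553 was the second most abundant gene of the wild-type gland and was about as abundant in the mutants. It took 8.88%, 9.20% and 9.43% of wild-type counts and 7.86%, 8.86% and 8.53% of mutant counts, so that as a share the mutants lay just below, with 8.86% next to 8.88%. Per 100 counts of genes outside the 20 most abundant it had 22.1, 22.8 and 22.5 in wild-type glands, against 22.0, 25.4 and 24.5 in the mutants, and here the groups overlapped. The direction thus depended on the denominator: the log2 ratio of the means was -0.12 for all counts and 0.09 without the 20 most abundant genes. After TMM the fitted log2 fold change was 0.16 (SE 0.08).

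The ratio of Mucl2 to Gm1553 within a library needs no scaling at all. There were 0.459, 0.472 and 0.452 Mucl2 counts for each Gm1553 count in wild-type libraries 1 to 3, against 1.61, 0.870 and 1.08 in mutant libraries 1 to 3. Against Obp1a, an odorant-binding protein gene with the highest mean share over the 6 libraries, Mucl2 had 0.377, 0.425 and 0.447 counts in wild-type glands, against 1.53, 0.817 and 0.939 in the mutants. Both ratios were higher in every mutant than in every wild-type library. Gm1553 per Obp1a count, in contrast, lay at 0.822 to 0.990 in wild-type and 0.869 to 0.952 in the mutants, fully inside the wild-type range.

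Divided by exon length, Gm1553 was the higher of the pair in wild-type, at 126787 ± 2065 CPM per kb (SD, n = 3) against 36790 ± 1397 for Mucl2. In the mutants the levels were 141428 ± 11979 and 103587 ± 23711 CPM per kb. With these lengths Mucl2 reached Gm1553 in mutant 1, where their levels per kb were 129087 and 127775, and stayed below it in mutant 2 and 3. The length used for Mucl2 was 1046 bases, over 2 annotated transcripts, while the transcript whose coding start is shown above has 639. Gm1553 has 658 bases by both measures. A shorter length would raise Mucl2 per kb, so the order of the pair in the mutants depends on the length used. By count, Mucl2 ranked 6th, 5th and 5th in the wild-type libraries and 1st, 3rd and 2nd in the mutants.

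The higher share of Mucl2 stood beside a lower share of the genes outside the dominant transcripts. The other dominant genes together held about the same mean share in both groups, but varied among the mutants. The mean share of Mucl2 was 5.62 percentage points higher in the mutants. The other 19 of the 20 most abundant genes together held 54.9% ± 1.05 in wild-type and 55.0% ± 3.03 in the mutants (SD, n = 3 each). By library these 19 held 55.8%, 55.2% and 53.8% in wild-type glands, against 51.6%, 57.4% and 56% in mutant libraries 1 to 3. All remaining genes held 40.9% ± 0.991 and 35.1% ± 0.535, a difference of -5.72 points. Under library totals the median of all tested genes lay at -0.28 (log2), and it lay at -0.19 when Mucl2 alone was taken out of the totals and at -0.06 when the 20 most abundant genes were. Differences in share between these libraries are to be read against that shift.

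**Figure D2:**
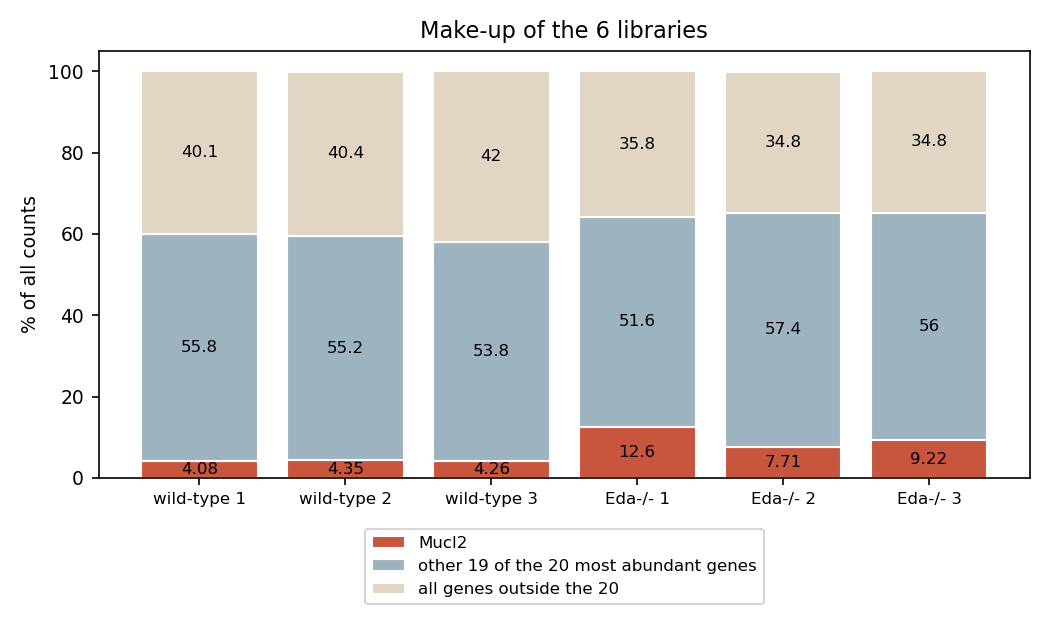
Make-up of each library as a percentage of all counts, stacked as Mucl2, the other 19 of the 20 most abundant genes and all genes outside the 20. The genes outside the 20 hold 40.1% to 42.0% in wild-type and 34.8% to 35.8% in the mutants, and mutant 1, with the largest Mucl2 block, has the smallest block of other dominant genes at 51.6%.

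Agr2 was well expressed and somewhat higher in the mutants once the dominant transcripts were set aside. It had 321, 359 and 333 CPM in wild-type glands, against 444, 416 and 468 in the mutants after TMM, with no overlap, and a fitted log2 fold change of 0.39 (SE 0.08). As a share of all counts the groups overlapped: 0.0346%, 0.0389% and 0.0380% in wild-type glands, against 0.0415%, 0.0374% and 0.0415% in the mutants. The log2 ratio of the means was 0.11 on that scale and 0.33 without the 20 most abundant genes. Relative to Mucl2, Agr2 transcripts were scarcer in the mutants, with 8.47, 8.94 and 8.91 Agr2 counts per 1000 Mucl2 counts in wild-type glands, against 3.29, 4.84 and 4.5 in the mutants. The difference in this folding enzyme was thus smaller than that in Mucl2.

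Spdef was a weakly expressed gene and lower in every mutant. It had 71, 80 and 87 counts in wild-type glands, against 32, 22 and 44 in the mutants, or 4.43, 4.71 and 5.58 CPM against 2.79, 2.06 and 3.43 after TMM. The groups did not overlap as counts, as a share or on the TMM scale. On the TMM scale the same held for 3 of the 4 members and for 32.1% of all tested genes, a background given only for reference since this contrast chose the members. Its log2 ratio was -1.11 as a share of all counts and -0.89 without the 20 most abundant genes, and the fitted value was -0.81 (SE 0.21). Counting error was a large part of the spread here: counts of this size give coefficients of variation of 11.2% and 17.5%, and the observed ones were 15.6% in wild-type glands, against 24.1% in the mutants. For each 1000 Agr2 counts there were 13.8, 13.1 and 16.7 Spdef counts in wild-type glands, against 6.29, 4.95 and 7.32 in the mutants.

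**Figure D3:**
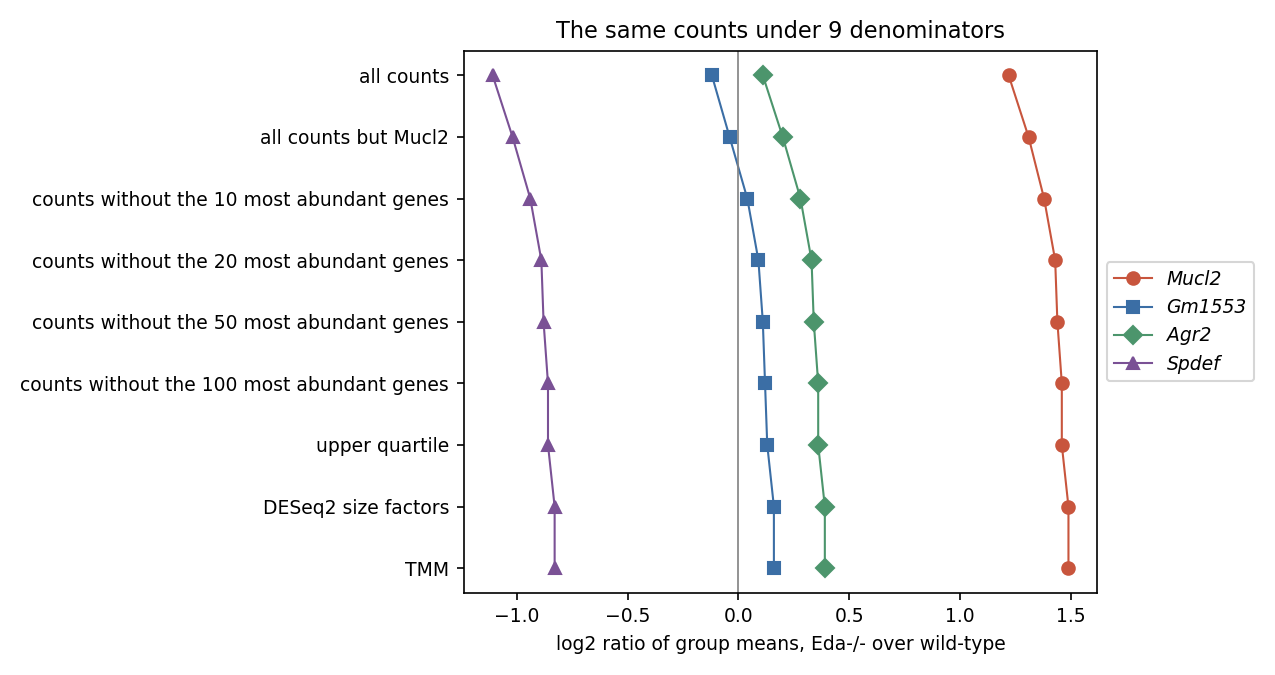
Log2 ratio of the group means (Eda-/- over wild-type, horizontal axis) of the 4 genes under 9 denominators (vertical axis), from all counts at the top to TMM at the bottom. Mucl2 runs from 1.22 to 1.49 and Spdef from -1.11 to -0.83, each on one side of 0 throughout, Agr2 runs from 0.11 to 0.39, and Gm1553 crosses 0, from -0.12 to 0.16.

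The gel-forming mucins of mucous cells were close to 0 in these glands. Of 25 further mucins and mucin-like genes in the table, 17 were too low to be tested, with at most 10 counts in any library. They included every gel-forming mucin listed. Muc5ac, the gel-former of conjunctival goblet cells, had 2, 10 and 7 counts in wild-type glands, against 2, 2 and 0 in the mutants, and Muc5b had 2, 2 and 8 against 3, 1 and 1. Muc19, the mucin of sublingual glands, had 3, 1 and 4 against 2, 0 and 1. The membrane mucins Muc1, Muc4 and Muc16 stood at 7 counts or fewer. Mucl1, for all its likeness to Mucl2, had 2, 1 and 0 counts in wild-type glands, against 2, 2 and 2 in the mutants, and Mucl3 at most 2.

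Of the 8 mucins and mucin-like genes that were tested, 0 passed edgeR's quasi-likelihood test at a p under 0.05 after Benjamini-Hochberg adjustment, where 13.1% of all 13178 tested genes did. At an unadjusted p under 0.05 edgeR gave 1, Mcam, while DESeq2 and limma-voom also passed 0 after adjustment. The median log2 fold change of the 8 was -0.15, beside 0.00 for all tested genes. The sialomucin Cd164 was the most abundant of them, at 223 ± 8.62 CPM in wild-type and 244 ± 31 in mutant glands (SD, n = 3 each), a log2 difference of 0.13 (edgeR adjusted p = 0.369). Podxl, podocalyxin, had 4.45 ± 0.318 and 4.73 ± 0.529 CPM (adjusted p = 0.783), and the adhesion molecule gene Mcam 3.11 ± 0.253 and 4.63 ± 1.07 (log2 0.57, edgeR adjusted p = 0.0833), and Mcam passed when mutant 3 was left out. Mucl2 and Gm1553 were chosen with their high levels known, so their standing apart in level is a description only. Per length, Cd164, the next of the list, lay between 48.2 and 52.1 CPM per kb in wild-type. Whether Gm1553 encodes a mucin was not tested.

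Among the secreted partners of mucins, Fcgbp and Dmbt1 fell. Of 24 listed products and folding enzymes of mucous cells in the table, 16 were too low to be tested (at most 8 counts in a library), among them the trefoil factors Tff1, Tff2 and Tff3, Clca1 and Ern2. Agr3, the paralog of Agr2, and Tff3 had 0 counts in all 6 libraries, where a count of 0 allows up to 3 counts, or at most 0.281 CPM. Of the 8 tested, 2 fell and none rose, against 6.9% of all tested genes lower and 6.21% higher. Fcgbp, which encodes a large secreted protein that binds to mucin gels, had 302, 246 and 271 CPM in wild-type glands, against 106, 134 and 131 in the mutants. It fell by 1.14 on the log2 scale (SE 0.10, edgeR adjusted p = 2.92e-06), and every wild-type library lay above every mutant. Dmbt1, a scavenger receptor protein of mucosal secretions, had 491, 512 and 446 CPM in wild-type glands, against 361, 319 and 340 in the mutants. Dmbt1 fell by 0.51 (SE 0.08, adjusted p = 0.000672), also with no overlap.

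The most abundant folding enzymes of this list did not pass. Qsox1, a sulfhydryl oxidase, had 412 ± 7.14 and 433 ± 13.9 CPM (log2 0.07, adjusted p = 0.586), and the disulfide isomerase Pdia6 had 112 ± 4.91 and 124 ± 3.98 (0.15, adjusted p = 0.174). Stard10, a lipid transfer protein gene, had 62.7 ± 0.197 and 61.9 ± 7.18 CPM. The median of the 8 was -0.20, beside 0.00 for all tested genes.

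Among transcription factors of mucous cells, several known from goblet cells were near 0, and Bhlha15 and Xbp1, known from protein-secreting cells, rose. Foxa2, Foxa3, Atoh1, Gfi1 and Creb3l4 were among 8 of 19 that could not be tested, at 7 counts or fewer in each library. Of the 11 tested, 2 rose (18.2%) and none fell, beside 6.21% higher and 6.9% lower among all tested genes. Bhlha15 (MIST1), a factor of serous secretory cells, had 336, 356 and 327 CPM in wild-type glands, against 428, 465 and 412 in the mutants, and rose by 0.36 (SE 0.08, adjusted p = 0.00694). Xbp1, which widens the endoplasmic reticulum of secretory cells, had 340, 314 and 352 CPM in wild-type glands, against 448, 368 and 402 in the mutants. Xbp1 rose by 0.28 (SE 0.09, adjusted p = 0.0462). This call was lost when wild-type 1, wild-type 2, mutant 1 or mutant 3 was left out, with scaling on counts outside the 20 most abundant genes or by the upper quartile, and with a filter at a mean of 1 CPM. Neither gene passed with library totals. The median of the 11 was 0.10. Sox9 (-0.04, adjusted p = 0.898) and Rora (-0.02) did not pass.

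Spdef belongs to the ETS family, and 2 of its 3 listed epithelial relatives were higher in level. Per length, wild-type levels were 59.2 ± 2.74 CPM per kb for Ehf, 4.80 ± 0.233 for Elf5, 2.13 ± 0.262 for Spdef and 1.86 ± 0.504 for Elf3 (SD, n = 3 each). The ranges of Spdef (1.92 to 2.42) and Elf3 (1.41 to 2.40) overlapped, as did Spdef and Klf4 (1.80 to 2.55). None of these relatives passed: Ehf had a log2 fold change of -0.06 (adjusted p = 0.675), Elf5 of 0.23 (0.0721) and Elf3 of -0.61 (0.125). Foxa1, the only FOXA gene that was tested, had 13.5 ± 1.67 and 14.7 ± 0.849 CPM (0.12, adjusted p = 0.523). Creb3l1 had 9.46 ± 0.814 and 10.1 ± 1.44 CPM (0.10, adjusted p = 0.691). In the mutants Spdef lay at 1.2 ± 0.297 CPM per kb.

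Of the 36 listed enzymes that build mucin-type sugar chains 20 were tested, and 1 rose and none fell. At 5% higher this lay near the 6.21% of all tested genes, beside 6.9% lower. The gene that rose was Galnt2, a transferase that starts O-glycan chains, with only 5, 7 and 8 counts in wild-type glands, against 14, 10 and 13 in the mutants (log2 1.34, SE 0.38, adjusted p = 0.0284). The call was lost in DESeq2, with no filter on low counts, and on leaving out wild-type 1, wild-type 2 or any 1 mutant. The most abundant of these transferases did not pass: Galnt3 had 103 ± 6.91 and 105 ± 4.19 CPM (0.02, adjusted p = 0.888) and Galnt10 72.7 ± 2.09 and 76.8 ± 8.91 (0.08, adjusted p = 0.601). The median of the 20 was -0.04.

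St6galnac1 and St6galnac2, sialyltransferases of the same pathway, varied among the mutants in their own order. Other listed sialyltransferases lay lower in the mutants and did not pass. They were St3gal1 (log2 -0.84, edgeR adjusted p = 0.066), St6galnac4 (-0.81, adjusted p = 0.186) and St3gal2 (-0.26, adjusted p = 0.636), while St6galnac3 was too low to be tested. St6galnac1 had 14.0, 28.1 and 23.3 CPM in wild-type glands, against 67.8, 48.0 and 14.0 in mutant 1, 2 and 3 (log2 0.98, adjusted p = 0.449). St6galnac2 had 49.3, 44.0 and 40.1 CPM in wild-type glands, against 81.6, 67.1 and 45.8 in the mutants (0.54, adjusted p = 0.208). St6galnac2 passed without mutant 3 (0.75), with a replicate block (0.52) and with no filter on low counts (0.54), and was at 0.34 without mutant 1. Mutant 1, the library with the most Mucl2, was the highest for both, but mutant 3, the second for Mucl2, was the lowest mutant for both.

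**Figure D4:**
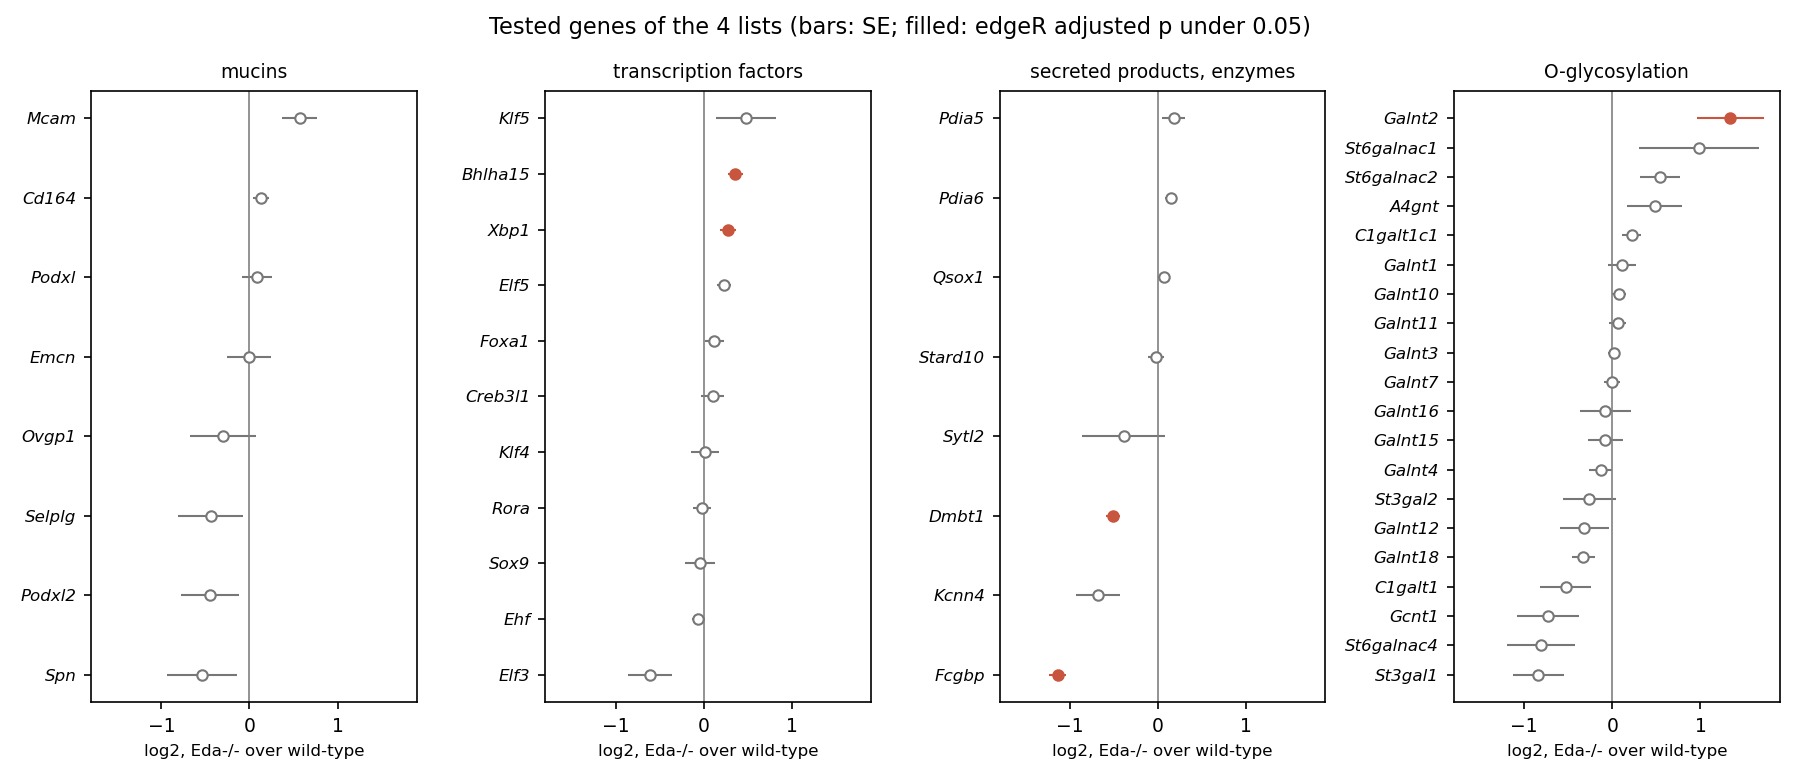
Log2 fold change (Eda-/- over wild-type, horizontal axis) with its SE for each tested gene of the 4 lists, leaving out Mucl2, Gm1553, Agr2 and Spdef; filled points passed edgeR's test at an adjusted p under 0.05. Fcgbp (-1.14) and Dmbt1 (-0.51) are the only filled points below 0, and Galnt2 (1.34), Bhlha15 (0.36) and Xbp1 (0.28) the only ones above.

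The genes with profiles most like each member were found by the root mean square difference of log2 CPM, each gene centred on its own mean over the 6 libraries, among 5843 genes with a mean of at least 10 CPM, predicted genes and pseudogenes left out. Such likeness is a description of 6 libraries in 2 groups. For Mucl2 no gene came closer than 0.172, the distance of Ints10, a subunit of the Integrator complex, followed by Alad (0.201), an enzyme of haem synthesis, and Obp1b (0.210), an odorant-binding protein gene. Alad had 6.48, 6.00 and 5.71 CPM in wild-type glands, against 24.6, 19.7 and 20.4 in the mutants, and Obp1b 18.2, 20.8 and 28.2 against 73.9, 52.2 and 54.5. All 3 lie on other chromosomes than Mucl2 and far below it in level. Whether the difference in Alad came with the loss of Eda or with genetic background was not tested. For Agr2 the closest were Sdf2l1 (0.0343), an endoplasmic reticulum protein, Hid1 (0.0366), a Golgi protein of secretory granule sorting, and Abcf2 (0.0414). Sdf2l1 had 62.7, 70.9 and 61.8 CPM in wild-type glands, against 86.9, 78.1 and 89.0 in the mutants, the same order of libraries as Agr2 within the mutants.

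For Gm1553 the closest were Api5 (0.0169), Golph3 (0.019) and Yipf6 (0.0233), the last 2 encoding Golgi proteins, but 1158 genes lay within 0.1 of this nearly flat profile. For Spdef they were the glycolytic enzyme gene Eno1 (0.0829), the amino acid transporter Slc43a2 (0.0936) and the receptor kinase Tyro3 (0.0972), and only these 3 genes lay within 0.1. Counts of Eno1, and those of Hmga1 and the Obp1 and secretoglobin families, are uncertain where the counting split reads between near-identical copies. Shared sequence was checked only for the members and Mucl1, and the same caution holds for Obp1a in the ratios above. Slc43a2 had 18.6, 17.6 and 24.6 CPM in wild-type glands, against 12.9, 8.81 and 13.7 in the mutants.

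Tested genes within 1 Mb of the members passed in both directions. Near Mucl2, 1 of 7 passed, the haematopoietic gene Nckap1l, which fell by 1.15 (adjusted p = 0.0341), a call lost without mutant 2 or 3. Near Gm1553, 2 of 24 rose (Ankrd24 and Aes) and 2 fell, the pseudogene Ap3m1-ps and Slc41a2, a magnesium transporter gene that fell by 0.96. Ap3m1-ps and Slc41a2 each lost the call when any of 5 single libraries was left out, and Aes with any of 4. Near Agr2, 1 of 6 passed: Tspan13, a tetraspanin gene 30 kb away, rose by 0.32 (SE 0.07, adjusted p = 0.00811). Near Spdef, 4 of 30 rose, among them Itpr3, a calcium release channel (0.43, adjusted p = 0.0021), and 2 fell, the chromatin protein gene Hmga1 (-1.71, adjusted p = 0.0109) and AI413582 (-0.94). Hmga1 did not pass without mutant 3, and with single libraries left out AI413582 passed only in the fit without mutant 1. Among those that rose near Spdef were also Uqcc2 (0.57) and D17Wsu92e (0.31), the latter lost with any of 4 single libraries left out. With library totals Tspan13 (0.04), Itpr3 (0.15), Ankrd24 (0.14), Uqcc2 (0.29), Aes (0.004) and D17Wsu92e (0.03) did not pass. In DESeq2 the calls of Uqcc2, AI413582, Aes, Ap3m1-ps and D17Wsu92e were lost. In all 12 of 67 neighbours passed (17.9%), beside 13.1% of all tested genes. Leaving out wild-type 2 or mutant 3 brought this to 6 or 5, in fits where fewer genes passed over the whole table as well. Of all tested genes 561 were higher and 676 lower without wild-type 2. Without mutant 3 the numbers were 563 and 599, against 819 and 909 with all 6 libraries.

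Markers of other cells are given beside these results, and their counts of calls stand beside 6.9% lower and 6.21% higher among all tested genes. The 8 goblet cell markers other than Fcgbp summed to 0.624 to 1.6 CPM in wild-type and 0.234 to 0.750 in the mutants, with Tff3 at 0. Fcgbp was therefore nearly the whole of that list. Of 8 macrophage markers 5 fell, with sums of 58.2 to 110 CPM in wild-type and 28 to 34.9 in the mutants. Among 6 myoepithelial markers 4 fell (124 to 161 CPM against 90.4 to 106). Of 7 tested duct markers none passed (531 to 566 CPM against 466 to 499). Fat markers were low, at 1.22 to 2.31 CPM in wild-type and 4.37 to 6.19 in the mutants, with Car3 and Cfd rising. Of the 5 skeletal muscle markers Mb fell, and they summed to 3.76 to 5.05 CPM against 0.780 to 2.18. Of 10 lacrimal markers Bhlha15 and Scgb2b24 rose, and Barx2 (-0.47) and Sox10 (-0.73), transcription factors of gland development, fell. Of 5 endothelial markers 1 rose and 1 fell (36.7 to 48.8 CPM against 31.9 to 35.7). None of the tested markers of the Harderian or sebaceous gland (683 to 740 CPM against 627 to 720) passed. Scd1 (445 to 484 against 398 to 460) and Soat1 (226 to 250 against 219 to 256) were nearly the whole of that sum. Elovl3 and Awat1 had at most 1 count in a library. No tested marker of B and plasma cells (7.96 to 30.2 against 22.8 to 52.6) passed, and T cell markers (0.811 to 1.03 against 0.262 to 0.562) were too low to be tested. The part of these cell types in the levels of Mucl2, Agr2 and Spdef was not tested.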

How the data were processed

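The deposited table holds read counts for each gene, whole and unscaled, in 1 column for each of 6 libraries, with replicates not pooled. Per the labels' protocols, libraries were directional and made from total RNA after ribosomal RNA removal. Per the submitters' processing notes, bcl2fastq, Trimmomatic, STAR, featureCounts and DESeq2 were used on GRCm38.p5. The sources used here do not give versions, annotation release, strand setting or the handling of reads with several matches.

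Identifiers were matched to GENCODE M21 (50462 of 50686), and 0 columns were left unmatched. Counts were fitted with edgeR 4.0.16 in R 4.3.3: filterByExpr (minimum count 10), TMM, genotype alone, robust quasi-likelihood, two-sided, Benjamini-Hochberg over 13178 genes. Standard errors are the log2 fold change over the square root of F. The edgeR fit was also run on simulated counts with the same dispersion for every gene, and its result is not given here. Lengths are of all annotated exons joined. Replicates are called biological in the series' design. Exact 95% intervals of single-library shares cover counting error only: for Mucl2 in wild-type 1 the interval was 4.07% to 4.09%. Promoters are from RefSeq (GRCm38.p6), and all 4 members matched.

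The members and lists were chosen with earlier results of these data known. Named genes are the passing genes of each list (at most 8, by p), with up to 3 others by CPM where fewer than 3 passed, the 3 genes most like each member, the 5 most abundant genes, and up to 5 passing neighbours of each by distance. Outside this rule, genes named with their values (such as Mucl1, Muc5ac, Elf3, Elf5, Foxa1, Creb3l1, Klf4, St6galnac1 and the markers) were chosen after their values were seen. Alternatives were DESeq2 1.42.0, limma-voom (limma 3.58.1), other scalings and filters, a replicate block and each library left out.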

Additional observations from a re-analysis of the deposited data

How the results depend on the processing

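Mucl2 and Spdef kept their direction under every scaling. As shares of all counts they ranged from 1.0 to 1.37 and from -1.28 to -0.94 with single libraries left out. Gm1553, -0.12 as a share of all counts, turned positive without the 10, 20, 50 or 100 most abundant genes (0.04, 0.09, 0.11, 0.12), with TMM (0.16), DESeq2 size factors (0.16) and the upper quartile (0.13). Agr2, 0.11 as a share, was 0.28, 0.33, 0.34 and 0.36 without those genes, 0.39 with TMM, 0.39 with DESeq2 size factors and 0.36 with the upper quartile. With single libraries left out, Gm1553 ranged from -0.16 to -0.08 and Agr2 from 0.06 to 0.16 as shares of all counts. No such range is given here for the other scales, on which both genes stood higher.

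Of all tested genes 819 were higher and 909 lower. With library totals the numbers were 247 and 4343, and with totals without the 20 most abundant genes 513 were higher. DESeq2 gave 548 and 695. Single libraries left out gave 561 to 677 higher and 599 (without mutant 3) to 834 lower, with fewer samples in each fit. Same-numbered libraries did not deviate together (correlations -0.0355, 0.0211 and -0.0937), so the numbers were not taken to pair them, and the fit with a replicate block gave 712 higher and 896 lower.

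With library totals 4343 of all 13178 tested genes were lower and 247 higher, and the list counts are to be read beside that. The transcription factors then gave 0 higher and 3 lower of 11 tested. The secreted products gave 5 lower of 8, and the O-glycosylation genes 8 lower of 20. The transcription factors gave 1 higher with the upper quartile, 1 with totals without the 20 most abundant genes and 1 with a mean of at least 1 CPM. O-glycosylation genes gave 0 higher in DESeq2, 0 with a mean of at least 1 CPM and 2 with the replicate block, and 1 lower without a filter. Leaving out single libraries gave 0 to 1 mucins higher, 1 to 2 transcription factors higher, 2 to 3 secreted products lower, 0 to 1 O-glycosylation genes higher and 0 to 1 lower, and 5 to 9 neighbours of the members. DESeq2 gave 7 neighbours. With library totals Xbp1 changed sign to -0.0033 and lost its call, and Galnt3 (-0.26) and Qsox1 (-0.21) changed sign and passed. Cd164 (-0.15), Podxl (-0.19), Pdia6 (-0.13) and Galnt10 (-0.20) also changed sign and passed in neither fit, the values of Foxa1 (-0.16), Creb3l1 (-0.18) and Elf5 (-0.05) changed sign too, while Ehf (-0.34), Rora (-0.30) and Stard10 (-0.30) kept their sign and passed as lower. The cause of changes not ascribed here was not tested. Depth limits Spdef, with at most 87 counts in a library, and the untested mucins, with at most 10.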
